A study of Mus musculus with 79 samples.

Results

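H3K27me3, the trimethylated form of lysine 27 of histone H3, was compared between the hypothalamus of mice with a mutated Dnmt3a and of wild-type mice over the whole genome. The members are the 6 H3K27me3 ChIP-seq libraries of the 79 samples given, 3 Δ/D329A against 3 +/+, and they were read over 2462755 autosomal tiles of 2725549 in the table, over the promoters of 25952 gene entries (from 1500 bases before to 500 bases after the start) and over 3189 domains of H3K27me3 made from the tiles. A tile is a window of 2000 bases taken every 1000 bases, so that neighbouring tiles share reads. Values are reads per 1000000 uniquely mapped reads (RPM) in a tile, with no correction for length and no subtraction of input, and a promoter takes the mean of the 2 tiles whose centre lies in it.

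The animals were 14 weeks old, and each library came from 1 animal, which also gave the H3K4me3, H3K36me3 and input libraries of the same number. Δ lacks exon 18 of Dnmt3a, deleted in the maternal oocyte by a Cre recombinase under the Zp3 promoter, and D329A is an allele with a single amino acid changed in the PWWP domain. In Δ/D329A animals D329A is therefore the only functional allele, in every cell from fertilisation on, and libraries of Δ/+ or D329A/+ animals were not analysed here for this mark, so that the 2 alleles cannot be told apart here. Chromatin was cut with micrococcal nuclease without crosslinking and precipitated in the ultra-low-input form of the assay, with 2.5% of a hypothalamus per precipitation and single reads of 75 bases. The study's figure legends give the ChIP-seq animals as male. RNA-seq of the same tissue, from 5 +/+ and 4 Δ/D329A libraries, serves as a further readout. For these the study is not uniform, with male in 1 legend and female in a supplementary legend. RNA and H3K27me3 may therefore come from animals of different sex.

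H3K27me3 is deposited by Polycomb repressive complex 2 (PRC2), whose catalytic subunit is EZH2 or EZH1, and is read by the CBX proteins of Polycomb repressive complex 1. In differentiated tissue it covers the promoters and flanks of silent developmental regulators such as the Hox genes, often over CpG islands, and where it coincides with H3K4me3 the promoter is called bivalent. DNMT3A is a de novo DNA methyltransferase, and its PWWP domain is known to bind methylated lysine 36 of histone H3. DNA methylation of a CpG island and H3K27me3 on it tend to exclude each other in many settings.

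Depth and the state of the libraries bear on all that follows. The 6 H3K27me3 libraries held between 14874942 and 26178088 uniquely mapped reads, and a median tile between 9 and 17 reads, so counting error is large in a single tile and smaller in a domain of many tiles, which still carries the spread between animals. The defining markers of neurons (17 of 17 above 1 RPKM in the RNA-seq of +/+), astrocytes (12 of 12) and oligodendrocytes (12 of 12) were present, as were 23 of 31 hypothalamic neuropeptides, while 2 of 9 markers of choroid plexus and 1 of 10 of anterior pituitary passed that level. No RNA of any marker list was called between the genotypes by limma at an adjusted p under 0.01. The study's DESeq test called many more genes, and it named Cartpt, a hypothalamic appetite peptide, among those lower. The tissue is a mixture, so fewer cells of a type with the mark and less of the mark per cell cannot be told apart. Input over exon 18 was 0.82, 0.79 and 0.65 RPM in +/+ and 0.61, 1.01 and 0.37 RPM in Δ/D329A; the ranges overlap, so this window does not check the genotype. In input as in H3K27me3, +/+ replicates 1 and 2 and Δ/D329A replicate 1 carried a high signal just upstream of Zp3 (between 16.3 and 24.8 RPM of input) that the other 3 animals lacked (between 0.82 and 1.07 RPM). The same 3 libraries of each kind had less and more mitochondrial coverage in H3K27me3 (between 4.07 and 10.3 RPM against 18.1 and 36.8 RPM). This division crosses the genotypes, and some medians are given below within each of the 2 sets of libraries as well.

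The 300 bases around 4 of the starts named below (RefSeq, build GRCm38.p6, 250 bases before to 50 after the start, written 5′ to 3′ on the strand of the gene) are shown to let their CpG content be seen, with every CpG in capitals. Onecut1 and Shox2 lost H3K27me3, and Txnip and Spata1 gained it.
Onecut1, chr9:74861671-74861970, plus strand: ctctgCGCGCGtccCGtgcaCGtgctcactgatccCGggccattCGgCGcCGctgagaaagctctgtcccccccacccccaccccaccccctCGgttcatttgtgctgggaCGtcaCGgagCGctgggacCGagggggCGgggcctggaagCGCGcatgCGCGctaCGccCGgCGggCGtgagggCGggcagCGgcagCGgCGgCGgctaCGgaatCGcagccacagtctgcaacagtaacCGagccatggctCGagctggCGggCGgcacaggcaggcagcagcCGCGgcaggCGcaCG
Shox2, chr3:66981722-66982021, minus strand: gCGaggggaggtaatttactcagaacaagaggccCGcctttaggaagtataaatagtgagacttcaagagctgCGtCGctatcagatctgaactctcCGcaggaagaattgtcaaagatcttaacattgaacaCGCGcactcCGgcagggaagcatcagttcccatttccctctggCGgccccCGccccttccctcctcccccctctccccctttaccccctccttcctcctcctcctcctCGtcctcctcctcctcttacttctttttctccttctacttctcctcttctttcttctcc
Txnip, chr3:96557707-96558006, plus strand: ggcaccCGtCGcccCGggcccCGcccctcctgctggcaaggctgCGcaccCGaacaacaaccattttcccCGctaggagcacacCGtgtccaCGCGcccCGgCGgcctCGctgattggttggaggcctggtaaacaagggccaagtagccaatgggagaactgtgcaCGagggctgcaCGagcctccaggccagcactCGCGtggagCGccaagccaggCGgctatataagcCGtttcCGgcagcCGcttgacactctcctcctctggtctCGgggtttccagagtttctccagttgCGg
Spata1, chr3:146499704-146500003, minus strand: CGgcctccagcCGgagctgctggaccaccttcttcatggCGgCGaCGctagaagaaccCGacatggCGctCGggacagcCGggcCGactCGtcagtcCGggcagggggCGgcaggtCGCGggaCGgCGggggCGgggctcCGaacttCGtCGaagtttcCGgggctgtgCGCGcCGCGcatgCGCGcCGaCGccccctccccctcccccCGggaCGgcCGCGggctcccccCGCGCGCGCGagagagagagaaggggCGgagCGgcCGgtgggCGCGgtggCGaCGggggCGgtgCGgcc
The window holds 38 CpGs at Onecut1, a count that 4.73% of all RefSeq promoters reach, 11 at Shox2 (41.3% of promoters), 24 at Txnip (19.8%) and 48 at Spata1 (1.22%). All 4 windows held more CpGs than the median of 7. Over the genes with a matched RefSeq window, the median was 22 CpGs for promoters called lower (30 of 49 matched), 16 for those called higher (110 of 172) and 5 for all promoters tested (7959 of 13083 symbols). For all promoters with H3K27me3 at least 3 times input it was also 16 (1076 of 1690).

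Fewer promoters were called lower than higher in Δ/D329A, and 37 of the 49 called lower were marked, with a mean of H3K27me3 at least 3 times input. With limma on log2(RPM + 0.1), over the 13103 promoters at or above 0.5 RPM in at least 3 of the 6 libraries, 49 were called lower (0.374%) and 172 higher (1.31%) at a Benjamini-Hochberg adjusted p under 0.05. At unadjusted p under 0.05 there were 458 lower and 1114 higher, and the groups did not overlap at 2096 promoters (16.0%). The median over the promoters called lower was 4.85 RPM in +/+ and 2.65 RPM in Δ/D329A, and over those called higher 0.85 and 2.04 RPM. In the 3 +/+ libraries the median of the former was 5.0, 5.16 and 4.93 RPM and in the 3 Δ/D329A libraries 2.59, 3.0 and 2.39 RPM. With the log2 input of the same animal subtracted the calls came to 16 lower and 30 higher, with edgeR on the recovered reads to 32 and 145, with DESeq2 to 22 and 30, and with no filter on level to 0 and 0. For promoters edgeR and DESeq2 took the reads of a single tile in place of the mean of 2, so tool and window changed together. The number called also depended on single libraries. The calls lower came to 26, 22 and 29 without +/+ replicate 1, 2 and 3 and to 37, 81 and 25 without Δ/D329A replicate 1, 2 and 3, and the calls higher to 116, 74 and 159 and to 72, 385 and 41.

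**Figure D1:**
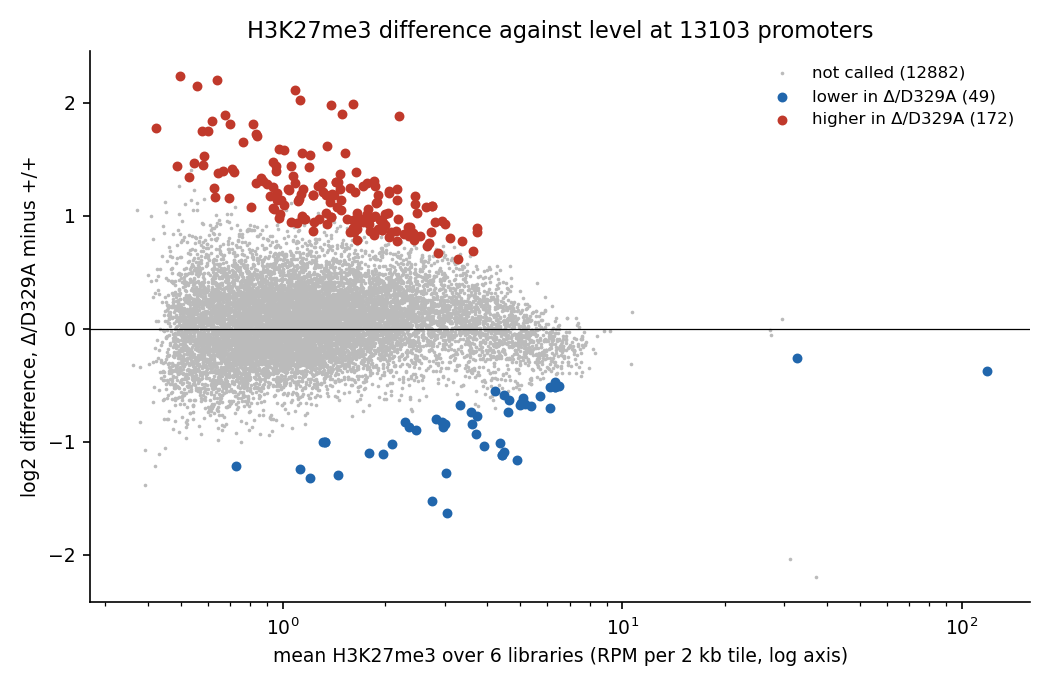
Difference in H3K27me3 (log2, Δ/D329A minus +/+, 0.1 RPM added) against the mean level over 6 libraries (RPM per tile, log axis) at the 13103 promoters tested, 1 point per promoter, those called lower in blue (49) and higher in red (172). Most blue points lie to the right of the red ones, and the grey points at the highest levels under 10 RPM lie mostly below 0.

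Hoxa7 showed the largest fall. This member of the Hoxa cluster, which specifies position along the body axis and is normally silent in forebrain (promoter chr6:52221354-52223354), stood at 4.66, 4.77 and 4.46 RPM in +/+ and 1.18, 1.6 and 1.55 RPM in Δ/D329A. The groups were far apart, and the 3 libraries of each genotype lay close together. The difference was −1.63 on the log2 scale (SE 0.18, adjusted p = 1.06e-05). Hoxa4 fell less, at 7.05, 6.27 and 6.52 RPM in +/+ and 4.13, 4.91 and 3.33 RPM in Δ/D329A, with a difference of −0.68 on the log2 scale (SE 0.14, adjusted p = 0.00826). Hoxa5, at 7.58, 8.59 and 6.77 RPM in +/+ and 4.74, 5.96 and 5.33 RPM in Δ/D329A, and Hoxa2, at 7.17, 7.45 and 7.64 RPM in +/+ and 4.37, 5.1 and 6.14 RPM in Δ/D329A, were called as well, with adjusted p of 0.0345 and 0.0354. None of these groups overlapped. Over the 49 promoters as a whole the groups did not overlap at 48, and at 167 of the 172. Over all promoters tested it was 16.0%. The call was made on the same values and largely fixes the lack of overlap. At called promoters, here and below, it is therefore only a description. The promoters named for the largest falls and rises were also picked among those without overlap.

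The ONECUT factors, homeodomain proteins with a cut domain that act in liver and neuron development, were called lower at both promoters named here. At Onecut1 (chr9:74860421-74862421) the libraries held 4.72, 3.96 and 4.29 RPM in +/+ and 1.75, 1.55 and 1.9 RPM in Δ/D329A, a difference of −1.27 on the log2 scale (SE 0.18, adjusted p = 0.000104). At Onecut2 they held 4.18, 4.26 and 3.77 RPM in +/+ and 1.18, 2.23 and 0.914 RPM in Δ/D329A, and Δ/D329A replicate 2 kept the most of the mark; the difference was −1.53 on the log2 scale (SE 0.23, adjusted p = 0.000338). Shox2 (chr3:66981271-66983271), a homeobox gene of limb, heart and thalamus development, was at 6.51, 5.82 and 5.83 RPM in +/+ and 3.13, 2.75 and 2.39 RPM in Δ/D329A, without overlap and with a difference of −1.11 on the log2 scale (SE 0.15, adjusted p = 0.000101).

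Foxc1, a forkhead factor of mesoderm and meninges (chr13:31805146-31807146), was at 5.41, 5.31 and 5.13 RPM in +/+ and 2.55, 2.92 and 2.16 RPM in Δ/D329A. The groups were well apart, with a difference of −1.04 on the log2 scale (SE 0.16, adjusted p = 0.000479). Pou4f1, a POU factor of sensory and habenular neurons (chr14:104467491-104469491), stood at 6.17, 5.4 and 6.47 RPM in +/+ and 2.22, 4.47 and 2.13 RPM in Δ/D329A. Here too Δ/D329A replicate 2 kept the most of the mark, still under the lowest +/+ value, and the difference was −1.09 on the log2 scale (SE 0.19, adjusted p = 0.00224). Gad2, which encodes a GABA-synthesising enzyme and is expressed in hypothalamic neurons (chr2:22620705-22622705), held 4.47, 5.52 and 4.56 RPM in +/+ and 2.29, 3.32 and 2.01 RPM in Δ/D329A, a difference of −0.93 on the log2 scale (SE 0.18, adjusted p = 0.00397).

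Sfmbt2, an imprinted gene whose product belongs to a Polycomb-associated protein family (chr2:10369010-10371010), carried no H3K4me3 above 3 times input and held 5.88, 6.15 and 6.0 RPM in +/+ and 1.85, 3.9 and 2.79 RPM in Δ/D329A. Its 3 Δ/D329A values were spread widely, all under the +/+ range, and the difference was −1.11 on the log2 scale (SE 0.18, adjusted p = 0.00115). At 9130024F11Rik, a gene of unknown function on chromosome 1 (chr1:56969991-56971991), the libraries held 6.54, 7.0 and 6.87 RPM in +/+ and 2.99, 2.94 and 3.02 RPM in Δ/D329A, with little spread in either group and a difference of −1.16 on the log2 scale (SE 0.14, adjusted p = 1.06e-05). The other falls among the 10 largest were of lower level. Bub3, a spindle checkpoint gene, went from 1.76 ± 0.15 RPM (SD, n = 3) to 0.64 ± 0.07 RPM, and Nr2f1, a nuclear receptor of cortical patterning, from 1.04 ± 0.22 to 0.41 ± 0.22 RPM. Gm20481 and Gm11292, of unknown function, differed by −1.29 and −1.24 on the log2 scale. Of the 49, Gm10800 and Gm10801, picked after their values were seen, had more input (162 and 43.3 RPM) than H3K27me3 and are uncertain. Sox3 and Gm14662, and Hoxa2 and 5730446D14Rik, share their tiles, so the 49 entries stand for 47 distinct pairs of tiles.

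**Figure D2:**
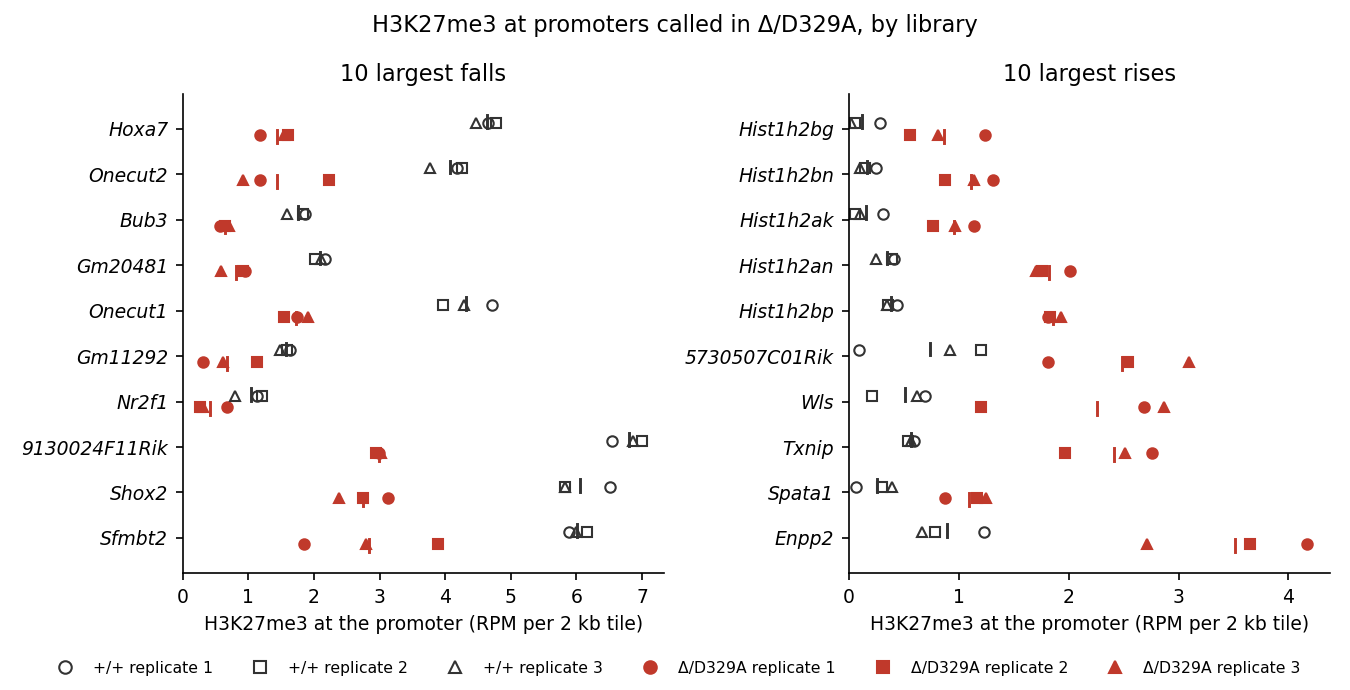
H3K27me3 (RPM per tile) at 20 called promoters, the 10 that fell and the 10 that rose by the most, 1 symbol per library, open for +/+ and filled for Δ/D329A, with a vertical bar at each mean (n = 3). The promoters were taken among those whose groups do not overlap, and 9130024F11Rik has the highest +/+ mean of the falls (6.8 RPM) and Enpp2 of the rises (0.89 RPM).

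Promoters that gained H3K27me3 started from little of it and carried H3K4me3. Of the 172 called higher, 157 (91.3%) had H3K4me3 at least 3 times input, against 32.3% of all promoters tested, and 17 had H3K27me3 at least 3 times input. A promoter low in +/+ could pass the filter through Δ/D329A alone, as 23 of the 172 did, and 109 reached 0.5 RPM in all 6 libraries; among all promoters tested, 60 passed through Δ/D329A alone and 39 through +/+ alone. 

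Txnip, which encodes an inhibitor of thioredoxin and of glucose uptake (chr3:96556457-96558457), held 0.598, 0.54 and 0.57 RPM in +/+ and 2.76, 1.97 and 2.51 RPM in Δ/D329A. Its +/+ values were nearly equal and all Δ/D329A values exceeded them, with a difference of 1.9 on the log2 scale (SE 0.23, adjusted p = 1.06e-05). Enpp2, which encodes autotaxin, the enzyme that makes lysophosphatidic acid (chr15:54919646-54921646), held 1.23, 0.781 and 0.669 RPM in +/+ and 4.17, 3.65 and 2.72 RPM in Δ/D329A, a rise of 1.88 on the log2 scale (SE 0.23, adjusted p = 1.06e-05). Wls, which carries Wnt proteins to the cell surface (chr3:159838237-159840237), held 0.692, 0.21 and 0.62 RPM in +/+ and 2.69, 1.2 and 2.87 RPM in Δ/D329A, with Δ/D329A replicate 2 the lowest of its group, and rose by 1.98 on the log2 scale (SE 0.32, adjusted p = 0.000739). The intermediate filament gene Vim (chr2:13572427-13574427), a marker of tanycytes and ependyma, held 0.598, 0.51 and 0.595 RPM in +/+ and 2.12, 1.62 and 1.78 RPM in Δ/D329A and rose by 1.53 on the log2 scale (SE 0.23, adjusted p = 0.000454).

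Histone genes made up 5 of the 10 largest rises, Hist1h2bg, Hist1h2bn, Hist1h2ak, Hist1h2an and Hist1h2bp on chromosome 13. Of 68 promoters of clustered histone genes 46 did not pass the filter on level. Among the 22 tested, 12 were called higher and 0 lower by limma, beside 1.31% higher over all promoters tested. Of the 12, 7 had passed the filter through Δ/D329A alone, the 5 named here among them, so that these had to differ and the count is only a description. Hist1h2an, at 0.409, 0.39 and 0.248 RPM in +/+ and 2.02, 1.76 and 1.7 RPM in Δ/D329A, rose by 2.12 on the log2 scale (SE 0.26, adjusted p = 1.06e-05). Hist1h2bg, also called higher, held 0.283, 0.06 and 0.0248 RPM in +/+ and 1.24, 0.554 and 0.812 RPM in Δ/D329A. These genes are near-identical copies, and 75-base reads cannot always be placed among them, so the values of single members are uncertain. The remaining 2 of the 10 were Spata1, a gene expressed in testis, at 0.0629, 0.3 and 0.397 RPM in +/+ and 0.874, 1.17 and 1.24 RPM in Δ/D329A, and 5730507C01Rik, at 0.0944, 1.2 and 0.917 RPM in +/+ and 1.82, 2.54 and 3.1 RPM in Δ/D329A, where +/+ replicate 1 was almost without reads. Spata1 too had passed the filter through Δ/D329A alone, so its rise is only a description.

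Some rises outside the rule for names were picked after their values were seen. Yap1 and Wwtr1, the transcriptional coactivators of the Hippo pathway, were both called, at 0.661, 1.08 and 1.29 RPM in +/+ and 2.66, 2.39 and 2.56 RPM in Δ/D329A (log2 difference 1.29, adjusted p = 0.00187) and 0.975, 1.47 and 1.51 RPM in +/+ and 2.52, 2.46 and 2.82 RPM in Δ/D329A (0.95, adjusted p = 0.0113). Rest, a repressor of neuronal genes outside neurons, held 0.315, 0.12 and 0.347 RPM in +/+ and 1.04, 0.535 and 0.812 RPM in Δ/D329A. It passed the filter through Δ/D329A alone and so had to differ. Its rise of 1.34 (adjusted p = 0.0472) is only a description, and its mean over the 6 libraries lay under its mean input of 0.908 RPM. Nfia, a factor of astrocyte formation, rose by 0.98 (adjusted p = 0.0189).

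The share of promoters lower in Δ/D329A changed with the level of the mark. Promoters were binned by the ratio of their mean over all 6 libraries to the mean input, so that neither genotype fixed the bin. Of the 594 promoters at 5 times input and above, 447 (75.3%) were lower in Δ/D329A, with 19 called lower, 0 called higher by limma and a median log2 difference of −0.13. Between 3 and 5 times input (1096 promoters) 18 were called lower and 17 higher, with a median of 0.08. Between 2 and 3 times (1422 tested) 3 were called lower and 52 higher, with a median of 0.14, and over all promoters tested the median was 0.04. Over the settings tried the median of the first bin ran from −0.24 to −0.02 and of the third from 0.02 to 0.20. Both values nearest 0 came with quantile normalization, under which 327 of the 594 promoters of the first bin were lower, so the change with level was much smaller there. The calls lower in the first bin came to 8, 7 and 8 without +/+ replicate 1, 2 and 3 and to 13, 32 and 9 without Δ/D329A replicate 1, 2 and 3. The calls higher in the third came to 28, 19 and 44 and to 20, 128 and 11. In the 2 sets of libraries the first bin gave −0.17 and −0.13. Over all 1690 promoters at 3 times input or more, here called marked, differences in both directions were about equally frequent, with 846 lower in Δ/D329A and a median of −0.001.

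Promoters were also divided by the presence of H3K4me3. Of 946 promoters with both marks, 28 were called lower and 16 higher, and the median difference was 0.07. Of 744 with H3K27me3 and without H3K4me3, 9 were called lower and 1 higher, and the median was −0.06. The 3283 tested of 13115 with H3K4me3 alone held 7 lower and 141 higher (4.29% of those tested), and the 8130 with neither mark held 5 lower and 14 higher. In the 6 libraries the median over bivalent promoters was 3.49, 3.33 and 3.74 RPM in +/+ and 3.73, 3.38 and 4.01 RPM in Δ/D329A, which overlap, and over promoters with H3K27me3 alone 4.59, 4.35 and 4.8 against 4.35, 4.18 and 4.75 RPM, which overlap as well. Whether the classes differ was not tested.

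**Figure D3:**
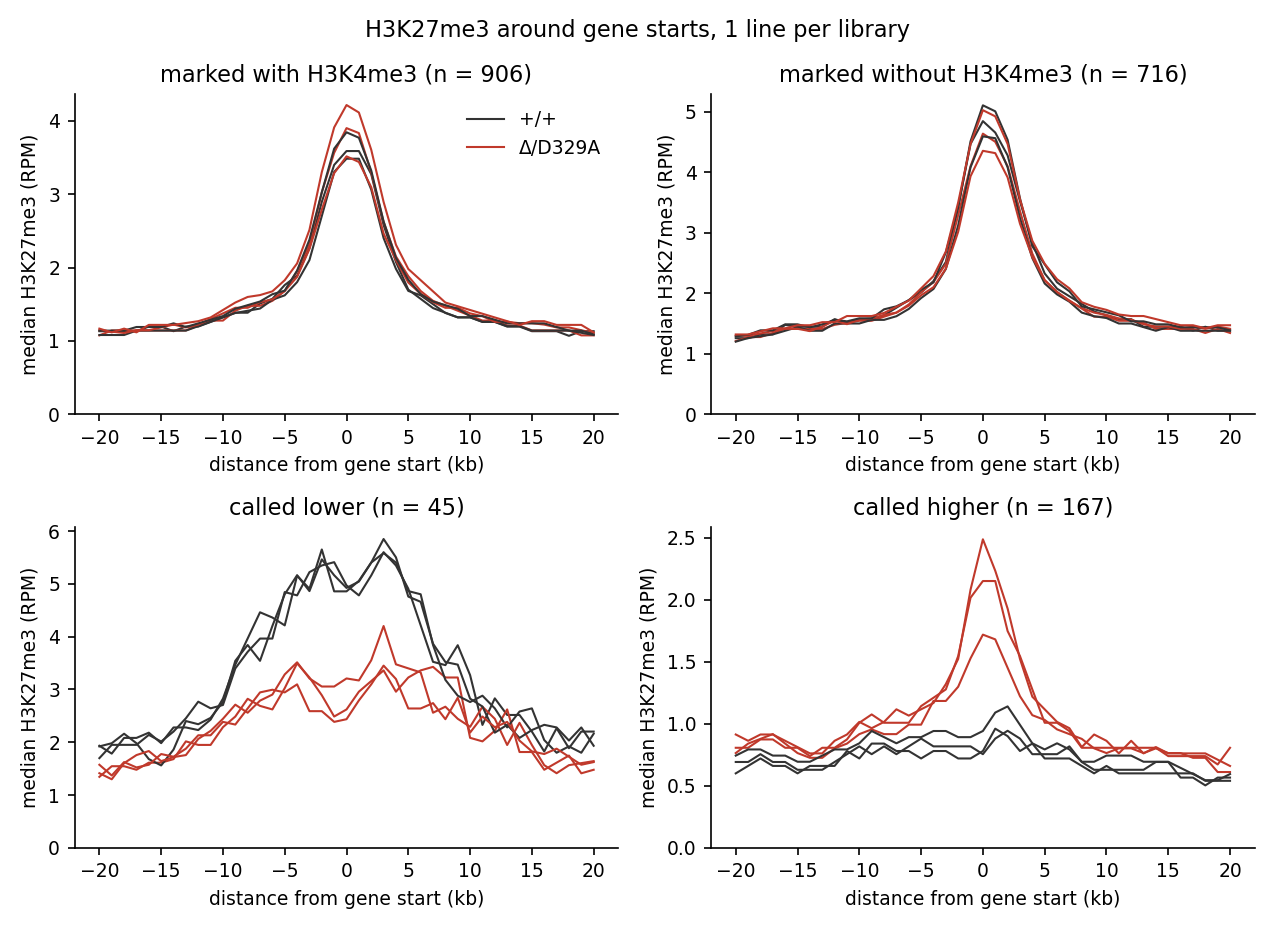
Median H3K27me3 (RPM per tile) from 20 kb before to 20 kb after gene starts, 1 line per library (+/+ black, Δ/D329A red), over marked promoters with H3K4me3 (906 distinct autosomal sets of tiles), marked promoters without it (716), promoters called lower (45) and promoters called higher (167). The lines of the genotypes run together over both marked classes, and separate at the starts called lower and at the starts called higher, with a smaller distance between them at the ends of the window.

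The level around the starts was read at distances up to 20 kb, where the difference at the start itself is fixed by the call. Over promoters called lower the median was 4.97, 4.92 and 4.86 RPM in +/+ and 2.62, 3.21 and 2.44 RPM in Δ/D329A at the start, 4.85, 4.8 and 4.21 RPM in +/+ and 3.03, 3.29 and 2.94 RPM in Δ/D329A 5 kb upstream and 3.27, 2.76 and 2.83 RPM in +/+ and 2.08, 2.29 and 2.18 RPM in Δ/D329A 10 kb downstream. Over promoters called higher it was 0.755, 0.781 and 0.942 RPM in +/+ and 2.15, 1.72 and 2.49 RPM in Δ/D329A at the start and 0.629, 0.66 and 0.744 RPM in +/+ and 0.807, 0.764 and 0.863 RPM in Δ/D329A 10 kb downstream. Around the starts called lower the libraries of the genotypes overlapped at several other distances, as at 9 kb downstream (3.84, 2.88 and 3.47 RPM in +/+ and 3.23, 2.44 and 2.84 RPM in Δ/D329A) and 11 kb downstream (2.33, 2.88 and 2.68 RPM in +/+ and 2.02, 2.67 and 2.49 RPM in Δ/D329A). The log2 ratio of the genotype means was −0.84 at the start, −0.36 at 20 kb upstream and −0.41 at 20 kb downstream of promoters called lower. It was 1.36, 0.29 and 0.29 for those called higher. A smaller difference of the same sign thus remained at the ends of the window in both.

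Hox genes and a list of patterning genes of the brain held calls lower and none higher. Of all promoters tested 0.374% were called lower and 1.31% higher, and of all marked promoters 2.19% and 1.01%. All 39 Hox promoters were tested and marked, 37 were lower in Δ/D329A, 4 were called lower (Hoxa2, Hoxa4, Hoxa5 and Hoxa7) and the median log2 difference was −0.22, beside 0.04 over all promoters tested. Their median was 6.58, 6.57 and 6.79 RPM in +/+ and 5.55, 5.94 and 5.94 RPM in Δ/D329A, without overlap. The list of Zic, Dlx, Gsx and Otx genes and their kin, patterning homeobox and zinc finger factors of the developing brain, held the most calls. Of its 21 promoters, 19 were lower and 7 were called (Gbx2, En1, Dlx1, Dlx2, Dlx5, Dlx6 and Otx1), with a median difference of −0.59, and its median was 5.0, 5.4 and 5.3 RPM in +/+ and 4.07, 4.22 and 3.76 RPM in Δ/D329A. Dlx1 and Dlx2, which direct the formation of GABAergic neurons, held 5.54, 6.57 and 6.4 RPM in +/+ and 4.34, 4.3 and 3.43 RPM in Δ/D329A and 3.96, 3.63 and 3.82 RPM in +/+ and 2.66, 2.37 and 1.35 RPM in Δ/D329A. Dlx5 held 5.0, 4.59 and 4.29 RPM in +/+ and 2.59, 3.19 and 1.98 RPM in Δ/D329A, Gbx2 held 6.2, 5.73 and 6.54 RPM in +/+ and 3.63, 4.22 and 3.76 RPM in Δ/D329A and En1 held 6.48, 6.54 and 7.64 RPM in +/+ and 4.1, 4.58 and 4.92 RPM in Δ/D329A, and in none of these did the groups overlap.

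Other transcription factor lists held fewer calls, and 1 call in a list this small is little to set beside 2.19% called lower over marked promoters. LIM homeobox genes had 10 of 12 lower and 1 called, Isl1, a factor of arcuate neurons, at 5.1, 5.94 and 5.16 RPM in +/+ and 3.09, 4.11 and 3.53 RPM in Δ/D329A, and hypothalamic identity factors had 20 of 25 lower, with Dlx1 and Isl1 called and a median of −0.20. Forkhead genes had Foxc1 called with 23 of 30 lower, and Sox genes had Sox6 (−0.77) and the X-linked Sox3 (−1.0) called lower. Of 12 POU promoters Pou4f1 was called lower and Pou3f4, a factor of the hypothalamus, higher, at 0.755, 0.57 and 1.29 RPM in +/+ and 1.48, 2.06 and 1.85 RPM in Δ/D329A. Pax (9 tested), Nkx (14), T-box (15), GATA factors and their partners (10) and proneural bHLH genes (17) held 0 calls by limma, with medians of −0.08, −0.18, −0.09, −0.11 and 0.00. Among the calls often lost under other settings were those of Hoxa5 and Isl1, lost in 11 of 22 other settings each, Hoxa2 (10 of 22), and Cbx2 and Dlx2 (9 of 22 each).

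Signalling and effector lists stood nearer to all promoters, of which 0.374% were called lower and 1.31% higher. The 50 promoters of Wnt, Bmp, Fgf and hedgehog ligands and the 25 of hypothalamic neuropeptides held 0 calls, with medians of −0.02 and 0.03; Npy, the orexigenic peptide of the arcuate nucleus, was at 5.51, 5.25 and 6.2 RPM in +/+ and 6.05, 5.81 and 6.02 RPM in Δ/D329A and Trh, the thyrotropin-releasing hormone, at 6.17, 5.67 and 7.51 RPM in +/+ and 6.99, 4.77 and 6.35 RPM in Δ/D329A, both with overlapping groups. Among 9 tested of 33 promoters of Polycomb components, Cbx2 and Cbx8, which bind H3K27me3, were called lower, Cbx8 at 2.55, 2.52 and 3.4 RPM in +/+ and 0.908, 1.7 and 1.5 RPM in Δ/D329A and Cbx2 at 1.67, 1.56 and 2.01 RPM in +/+ and 0.672, 1.36 and 0.584 RPM in Δ/D329A, with log2 differences of −1.02 and −1.0. Among imprinted genes 1 of 24 was called (Sfmbt2), and germline genes (26 tested) held 0. Of the lists of cell type markers, neurons had Gad2 called lower (13 tested), ependyma and tanycytes had Vim called higher (9), and astrocytes (11), oligodendrocytes (10), their precursors (8), microglia (10), endothelial and mural cells (11), choroid plexus (9), anterior pituitary (10) and erythroid cells (4) held 0. The median differences of the astrocyte, oligodendrocyte, precursor, microglia and vascular lists were positive, from 0.10 in oligodendrocyte precursors to 0.36 in oligodendrocytes. That of ependyma and tanycytes was 0.03 and that of neurons −0.14, beside 0.14 over all promoters between 2 and 3 times input. Among the former lists the library medians of the genotypes overlapped in all but oligodendrocytes (0.975, 1.01 and 1.15 RPM in +/+ and 1.56, 1.22 and 1.51 RPM in Δ/D329A). Of 30 housekeeping genes only Rpl13a passed the filter on level.

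Genes taken from the study's expression results were Pou4f1, Hoxa7, Tal1, Hoxd8, Lhx4 and Wt1. Pou4f1 and Hoxa7 were called lower, as above. Tal1, a factor of blood and midbrain development (chr4:115054926-115056926), held 6.89, 7.36 and 7.54 RPM in +/+ and 5.28, 5.67 and 5.46 RPM in Δ/D329A, without overlap, but its difference of −0.40 on the log2 scale (SE 0.12, adjusted p = 0.094) missed the threshold. Hoxd8, at 5.79, 5.49 and 5.95 RPM in +/+ and 3.16, 4.6 and 4.54 RPM in Δ/D329A, was likewise without overlap and not called (adjusted p = 0.102). Lhx4, at 5.54, 5.25 and 5.97 RPM in +/+ and 4.77, 4.85 and 5.08 RPM in Δ/D329A, did not overlap and was not called either (adjusted p = 0.65). Wt1, a zinc finger factor of kidney and gonad development, overlapped at its promoter, with 5.79, 6.45 and 6.97 RPM in +/+ and 5.75, 5.81 and 7.16 RPM in Δ/D329A (adjusted p = 0.945). The domain of 32 kb over Wt1 and AI314831 (chr2:105111001-105143000) was called lower. It held 6.7, 6.07 and 6.54 RPM in +/+ and 4.63, 5.21 and 5.46 RPM in Δ/D329A, without overlap and with a difference of −0.33 on the log2 scale (SE 0.08, adjusted p = 0.0202). Ghsr, Bdnf, Cartpt and Sirt1, which the study discusses for their expression, were picked after their values were seen. Ghsr, the ghrelin receptor, held 4.62, 3.87 and 4.61 RPM in +/+ and 4.1, 4.05 and 4.26 RPM in Δ/D329A. Bdnf, a neurotrophin, held 3.62, 3.15 and 3.77 RPM in +/+ and 3.93, 4.01 and 5.05 RPM in Δ/D329A. Cartpt, an appetite-regulating peptide, held 2.86, 3.06 and 3.92 RPM in +/+ and 3.77, 2.77 and 2.92 RPM in Δ/D329A. None of these was called (adjusted p = 0.91, 0.491 and 0.945), and Sirt1 did not pass the filter on level.

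Among domains, the calls lower were mostly long and the calls higher mostly short. A domain is a run of autosomal tiles whose mean over all 6 libraries was at least 3 times the mean input and at least 1.5 RPM, with gaps up to 2 kb joined and a length of at least 3 kb; the 3189 domains covered 23.8 Mb and 1570 held a gene start. By limma, 101 domains were called lower (3.17%) and 54 higher (1.69%), and the groups did not overlap in 670 (21.0%). Domains called lower had a median length of 19 kb and went from a median of 5.57 to 3.96 RPM, while those called higher had a median length of 3.5 kb, none over 9 kb, and went from 2.35 to 3.93 RPM. The calls lower came to 26, 59 and 32 without +/+ replicate 1, 2 and 3 and to 84, 119 and 74 without Δ/D329A replicate 1, 2 and 3, and the calls higher to 20, 20 and 35 and to 24, 211 and 12. With input subtracted the calls came to 10 lower and 1 higher, with edgeR to 106 and 82 and with DESeq2 to 120 and 55.

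Most long domains had less H3K27me3 in Δ/D329A. Of the 199 domains of 20 kb and longer, 184 were lower in Δ/D329A, 49 were called lower and 0 higher by limma, and the median log2 difference was −0.22. Their median per library was 5.39, 5.16 and 5.58 RPM in +/+ and 4.23, 4.57 and 4.6 RPM in Δ/D329A, so that each +/+ library exceeded each Δ/D329A library. Domains of 10 to 20 kb (360) had a median difference of −0.07 with 25 called lower and 0 higher, those of 5 to 10 kb (1156) 0.03 with 18 and 15, and those of 3 to 5 kb (1474) 0.08 with 9 and 39. In the shorter classes the libraries of the genotypes overlapped. The median of the longest class stayed between −0.29 and −0.14 over the settings tried, with 165 to 189 of the 199 lower, and was −0.25 and −0.26 in the 2 sets of libraries. The 49 calls were less stable and came to 14, 30 and 15 without +/+ replicate 1, 2 and 3, to 41, 47 and 31 without Δ/D329A replicate 1, 2 and 3, to 13 with quantile normalization and to 4 with input subtracted. With edgeR the calls came to 58 lower and 2 higher, and with DESeq2 to 59 and 2. For the domains of 3 to 5 kb the same sets of libraries gave 0.01 and 0.14.

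**Figure D4:**
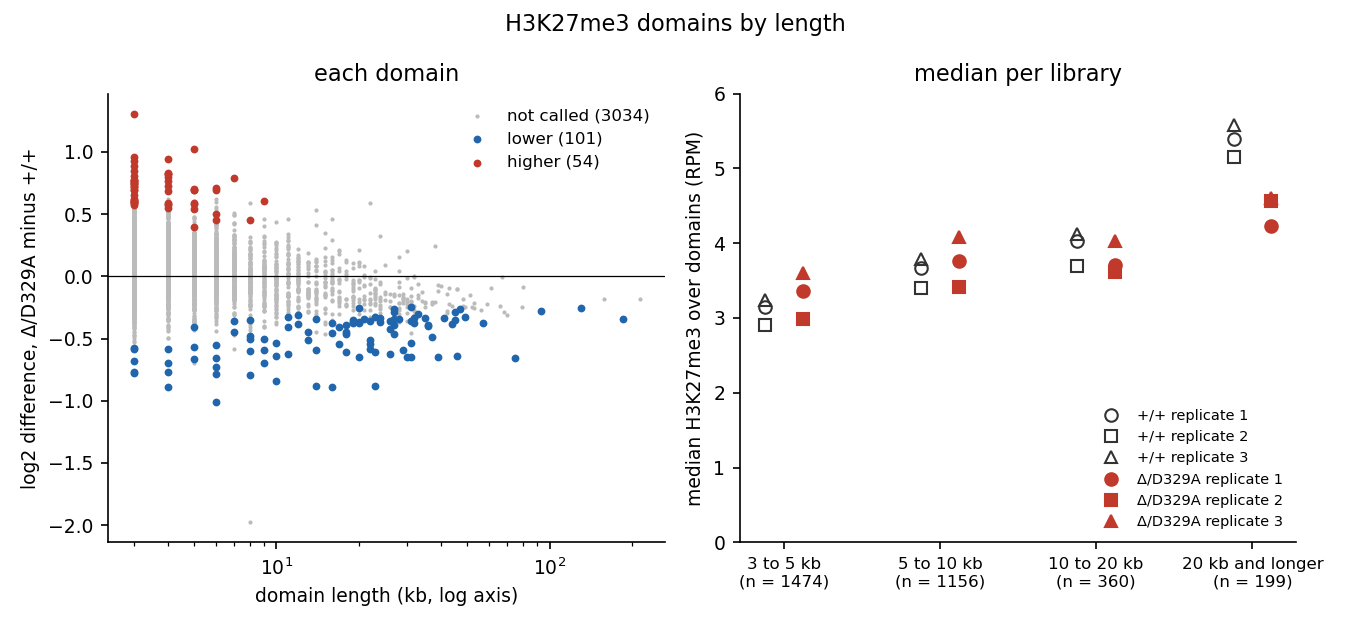
H3K27me3 in 3189 domains. Left, difference (log2, Δ/D329A minus +/+) against length (kb, log axis), 1 point per domain, called lower in blue and higher in red; right, median level per library (RPM) for 4 classes of length, open for +/+ and filled for Δ/D329A. The groups separate in the class of 20 kb and longer alone, where +/+ libraries lie between 5.16 and 5.58 RPM and Δ/D329A libraries between 4.23 and 4.6 RPM.

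The longest domains were the Hox clusters. The Hoxa domain (chr6:52144001-52330000, 186 kb) held 6.83, 6.69 and 7.14 RPM in +/+ and 5.03, 5.64 and 5.54 RPM in Δ/D329A. The difference was −0.35 on the log2 scale (SE 0.07, adjusted p = 0.00745). The Hoxd domain (chr2:74642001-74772000, 130 kb) held 6.68, 6.5 and 6.85 RPM in +/+ and 5.44, 5.58 and 5.69 RPM in Δ/D329A and was called as well, with a difference of −0.26 on the log2 scale (SE 0.07, adjusted p = 0.0354). The Hoxc domain (214 kb) held 6.55, 6.35 and 6.93 RPM in +/+ and 5.5, 5.85 and 6.05 RPM in Δ/D329A and the larger Hoxb domain (158 kb) held 6.31, 6.05 and 6.67 RPM in +/+ and 5.43, 5.6 and 5.69 RPM in Δ/D329A; in both the groups did not overlap, and with adjusted p of 0.152 and 0.178 neither was called. Among the other 6 of the 10 longest, 2 were called. The domain of Pax3, a factor of neural crest, spanned 93 kb and held 6.76, 6.6 and 6.98 RPM in +/+ and 5.4, 5.7 and 5.62 RPM in Δ/D329A, a difference of −0.28 on the log2 scale (SE 0.07, adjusted p = 0.0217). The domain of Zic1 and Zic4, factors of cerebellar development, spanned 75 kb and held 6.43, 6.21 and 5.53 RPM in +/+ and 5.07, 2.53 and 4.27 RPM in Δ/D329A, a difference of −0.65 on the log2 scale (SE 0.15, adjusted p = 0.0126). In the Zic domain Δ/D329A replicate 2 was far under the other 2 libraries of its group. The domains of Tbx5, Tbx3, En2 and Hoxb13, of 68 to 80 kb, differed by −0.31 to −0.08 and were not called.

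The 5 largest falls among called domains were at Sfmbt2 (6 kb; log2 difference −1.01), Foxc1 (16 kb; −0.89), Onecut2 (23 kb; −0.88), a domain of 14 kb whose edge lies 71 bases from the start of Tbr1, a cortical T-box factor, and a domain of 4 kb (chr14:122372001-122376000) with no start within 75 kb in the table. The 5 largest rises were at Yap1 (log2 difference 1.31), B3gnt5 (1.02), Mansc1 (0.96), Rab37 (0.94) and Mocos (0.92), each of 3 to 5 kb. The Yap1 domain held 0.661, 0.991 and 1.36 RPM in +/+ and 2.76, 2.06 and 2.87 RPM in Δ/D329A. In none of the 10 did the groups overlap, which the call largely fixes.

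Domains over regions of low DNA methylation held many of the calls lower. Of the 266 domains that overlap a methylation canyon of the study's list, long regions of low DNA methylation in wild type, 55 were called lower and 4 higher, and 211 (79.3%) were lower in Δ/D329A, against 46, 50 and 41.6% of the 2923 off canyons. The H3K27me3 domains over canyons were longer than those off them, with a median length of 17 kb against 5 kb. Among domains of 10 kb and more 91.2% over canyons and 67.4% off them were lower, with medians of −0.22 and −0.09. Among domains of 3 to 10 kb the shares were 47.2% and 37.9%. At 10 kb and more 73.1% of domains with H3K4me3 and 79.7% of those without it were lower. The calls lower differed more, with 59 of 342 (17.3%) with H3K4me3 and 15 of 217 (6.9%) without. At 3 to 10 kb 28.6% were lower with it and 46.1% without, with 48 of the 54 calls higher in the former. These differences between classes were not tested. Within domains of 10 kb and more the log2 ratio of the genotype means was −0.11 at the edge, −0.16 at 5 tiles inside and −0.06 at 5 tiles outside.

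Single tiles gave few calls for their number. By limma 656 of 1556091 tiles tested were called (0.0422%), 327 of them lower (0.021%) and the rest higher (0.0211%), in 132 and 186 separate regions. Of the tiles called lower 81.0% lay in a domain, and of those called higher 7.3%, against 1.33% of all tiles tested. Tiles called higher lay in promoters in 33.1% of cases, tiles called lower in 11.9% and all tiles tested in 1.61%. The longest runs of tiles called lower lay at 9130024F11Rik (14 tiles; mean 4.02 RPM in +/+ and 1.66 RPM in Δ/D329A), Onecut2 (13), Onecut1 and Foxc1 (12 each), Gbx2 and a region 2071 bases from the start of Tbr1 (9 each). A run of 8 tiles lay 2575 bases from the Tal1 start (chr4:115059001-115068000), with means of 5.89 and 2.64 RPM; at the Tal1 promoter the means were 7.26 and 5.47 RPM. The longest runs called higher lay over the histone genes Hist1h1b, Hist1h3i, Hist1h2an and Hist1h2bp (10 tiles), at Zfp516 (10), Enpp2 (8), Chrnb1 with Fgf11 (7) and A930004D18Rik with Gm13330 (7). The number of tiles called moved from 126 to 1089 lower and from 35 to 987 higher when single libraries were left out, with the extremes without +/+ replicate 1 (126 lower), Δ/D329A replicate 3 (35 higher) and Δ/D329A replicate 2 (1089 lower and 987 higher).

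The shares of reads in domains overlapped between the genotypes. It was 4.72, 4.68 and 5.03% in +/+ and 4.68, 4.32 and 4.84% in Δ/D329A, a difference of −0.19 percentage points (two-sided exact permutation test, p = 0.5; 3 against 3 cannot go below 0.1). With the domains drawn at 5 times input the shares were 1.91, 1.95 and 2.08% against 1.71, 1.7 and 1.80%, without overlap, and with domains at 2 times input the difference was 0.25 points in the other direction. By level, the 5920 autosomal tiles between 5 and 10 times input had a mean of 6.03, 5.88 and 6.38 RPM in +/+ and 5.04, 5.24 and 5.51 RPM in Δ/D329A (exact permutation p = 0.1, the smallest possible, 0.3 after adjustment over 6 bins). The means of tiles from 2 to 3 and from 3 to 5 times input overlapped between the genotypes.

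Other marks were read at the same promoters. H3K4me3, the mark of active and poised promoters, was called lower at 199 promoters (1.52%) and higher at 38 (0.29%). Among the 49 promoters that lost H3K27me3, 7 were called higher and 1 lower for H3K4me3, and the median H3K4me3 difference was 0.33 on the log2 scale, beside −0.07 over all promoters tested. The 7 were Pou4f1 (log2 difference 2.05, adjusted p = 5.78e-10), 9130024F11Rik (1.89, adjusted p = 1.27e-07), Hoxa4 (1.37, adjusted p = 0.000328), Hoxa7 (1.05, adjusted p = 0.0057), Six3os1, Onecut1 (0.97, adjusted p = 0.00473) and Onecut2 (0.87, adjusted p = 0.016), and Otx1 was the 1 called lower. Among the 172 that gained H3K27me3, 9 were called lower and 2 higher for H3K4me3, with a median of −0.37. Over all promoters with both marks the median was −0.33, with 102 of 946 called lower for H3K4me3. Over those with H3K4me3 alone it was −0.12, with 23 of 3283 called lower. A fall of H3K4me3 was thus also found over promoters with both marks at large, and its link to the gain was not tested. H3K36me3, the mark of transcribed gene bodies, was called higher at 14 promoters (0.107%) and lower at 0. The median H3K36me3 difference was 0.52 over the promoters that lost H3K27me3 and 0.13 over all. It was 0.32 over all marked promoters and also 0.52 over all promoters at 5 times input and above, so it was not particular to those that lost H3K27me3. 1 of the 49, 9130024F11Rik, was among the 14. In input 0 promoters and 0 domains were called by limma, and in the promoters that lost and gained H3K27me3 the median input difference was 0.08 and 0.09. Over domains, H3K4me3 was called lower in 40 (1.25%) and higher in 1 (0.0314%).

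RNA was measured for most genes that lost or gained the mark, in animals that may differ in sex from those of the ChIP-seq. Of the 49 genes 38 were tested for RNA, and 3 were called higher, Hoxa7, Pou4f1 and Hoxa4, of 15 genes called higher (0.0841%) and 4 lower (0.0224%) among 17839 tested by limma at an adjusted p under 0.01. The table gives a gene without a read a floor that lies 0.37 higher in Δ/D329A on the log2 scale, so silent genes show a positive difference with no reads behind it. Among the 26 genes that lost the mark and were above that floor, 24 (92.3%) had a positive RNA difference and the median was 0.39, against 54.5% and 0.04 over the 4740 such genes of all promoters tested. Among the 125 such genes that gained the mark 46 (36.8%) were positive, the median was −0.10, and 1 gene, Rln1, was called lower with 2 libraries of Δ/D329A at the floor. Hoxa7 and Hoxa4 stood at the floor in all 5 +/+ libraries, so their fitted differences of 4.85 and 2.25 depend on it. RNA of Shox2 (1.17, adjusted p = 0.342), Cbx8 (1.11, adjusted p = 0.241) and Onecut2 (0.74, adjusted p = 0.144) was not called. Wt1 and Lhx4, whose RNA differed by 5.72, adjusted p = 8.11e-06 and 5.11, adjusted p = 4.46e-07, with 4 and 3 of the 5 +/+ libraries at the floor, had no called change of H3K27me3 at the promoter, while the domain over Wt1 was called lower.

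**Figure D5:**
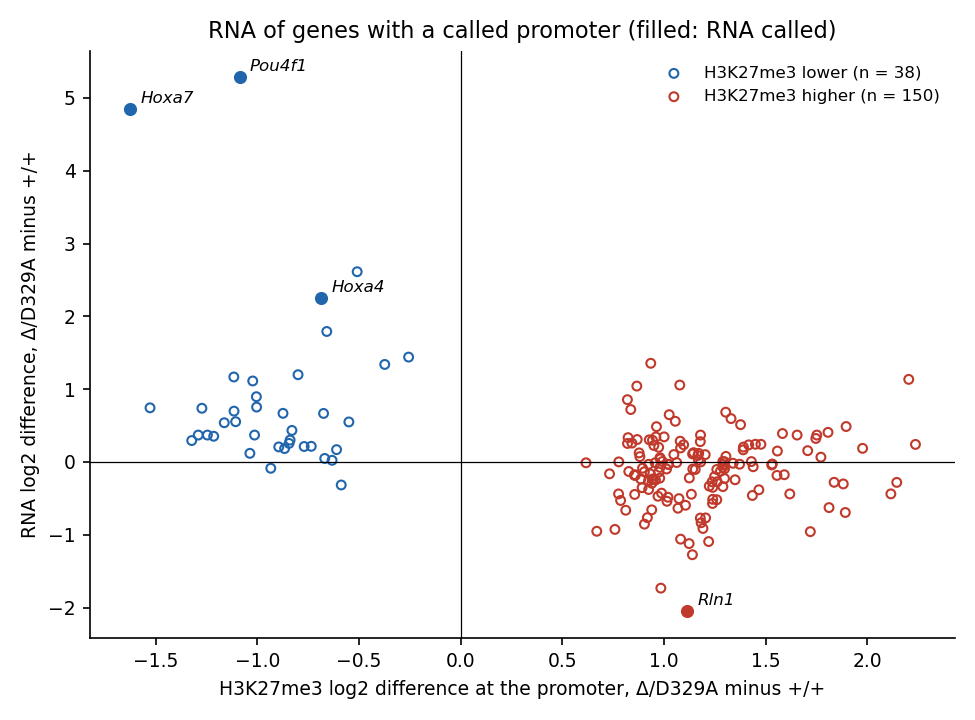
RNA difference (log2 RPKM, Δ/D329A minus +/+) against the H3K27me3 difference (log2) for genes with a called promoter and RNA tested, 38 lower in blue and 150 higher in red, filled where RNA was called. Most blue points lie above 0, with Pou4f1 and Hoxa7 near 5, and the red points spread on both sides of 0.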

How the data were processed

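H3K27me3, H3K4me3, H3K36me3 and input ChIP-seq libraries from 3 +/+ and 3 Δ/D329A hypothalami were used, with RNA-seq of 5 +/+ and 4 Δ/D329A hypothalami. Per the labels and the study's methods, the authors trimmed reads with Trim Galore, aligned them to GRCm38 (with Bowtie by the methods, while the submitters' processing notes list Bowtie2) and deposited the ChIP signal of each tile in SeqMonk as reads per 1000000 uniquely mapped reads. All values came out as whole reads within 0.01, and edgeR and DESeq2 were run on those reads as alternatives, with a single tile per promoter. The authors deposited RNA as log2 RPKM per gene. Each replicate is an animal, which gave all 4 ChIP libraries of its number.

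Tiles, promoters and domains were tested with limma 3.58.1 in R 4.3.3 on log2(RPM + 0.1), with a mean-variance trend, two-sided, and Benjamini-Hochberg adjustment over all features tested at 0.05, among those at 0.5 RPM or more in at least 3 libraries; a fold difference on this scale understates the change at low levels. RNA was tested with limma among genes at 0.1 RPKM in at least 4 libraries, at an adjusted p under 0.01. A mark was called present at 3 times the mean input over all 6 libraries. Shares were compared by exact permutation. The limma fit was tested on simulated H3K27me3 reads of promoters, domains and tiles, and the other tools were not.

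Named promoters were the 10 with the largest difference in each direction among those called whose groups did not overlap, 6 genes from the study's expression results, and from each of 29 gene lists up to 4 called genes with the smallest p or, failing these, the 2 with most H3K27me3; named domains were the 5 called with the largest difference each way. The members and lists were chosen with earlier results of these data known. Alternatives were other scalings, added values, filters, tools, windows and blocks, and leaving out each library. The result of 1 of the lists is not reported here.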

Additional observations from a re-analysis of the deposited data

How the results depend on the processing

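Domains of 20 kb and longer kept a negative median in all 19 settings tried, and promoters at 5 times input and over in all 22. For the latter it was only −0.02 with quantile normalization, with 327 of 594 lower. The promoters called lower and higher numbered 83 and 259 at an adjusted p under 0.1, 94 lower with median centring (38.7% of the calls, against 22.2%), 147 lower with promoters of 5000 bases on either side, 107 higher with a block of 2 library sets by mitochondrial coverage, 16 and 30 with the log2 input of the same animal subtracted, 32 lower with edgeR, 22 and 30 with DESeq2, and 0 and 0 with no filter, where 1175 lower and 1134 higher had an unadjusted p under 0.05. Tiles numbered 519 and 553 at an adjusted p under 0.1, 208 lower with median centring (36.3% of the calls, against 49.8%), 545 and 545 at 1 RPM and above, 6 and 10 with input subtracted, 170 and 179 with every other tile, and, called higher, 521 and 591 with 0.5 and 1 RPM added, 25 with no filter and 514 with edgeR. Domains numbered 186 lower with median centring, 53 lower with quantile normalization (54.6% of the calls, against 65.2%), 10 and 1 with input subtracted, 226 and 175 with library weights, 35 lower with domains drawn at 2 times input, 155 and 6 with domains at 5 times input, and, called higher, 108 at an adjusted p under 0.1, 32 with the block of library sets and 82 with edgeR. The cause of these changes was not tested. Without single replicates the calls lower and higher ran from 22 to 81 and from 41 to 385 for promoters, from 126 to 1089 and from 35 to 987 for tiles, and from 26 to 119 and from 12 to 211 for domains. The share of reads in domains differed by −0.306 to −0.0501 percentage points without single replicates and by 0.25 with domains at 2 times input, and the median over marked promoters ran from −0.063 to 0.051 and was −0.127 at 5 times input.

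The replicate numbers did not pair the samples by the rule used, since the deviations of same-numbered libraries correlated at 0.108, 0.072 and 0.043, although each library correlated best with its own number. With a replicate block, 93 promoters were called lower and 276 higher, 834 and 814 tiles, and 177 and 141 domains.

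Named promoters that were not called changed sign in places. With DESeq2 the log2 difference became 0.044 at Tbx15, 0.026 at Wnt3, −0.057 at Npy, −0.011 at Fgfr3 and −0.114 at C1qc. With TMM factors the log2 difference became 0.0035 at Wnt3 and 0.020 at Gjb6. With the block of 2 library sets the log2 difference became 0.078 at Wnt3, 0.032 at Zp3 and −0.043 at Fgfr3. With edgeR the log2 difference became 0.019 at Pax1, 0.133 at Tbx15, 0.112 at Wnt3, −0.071 at Rpl13a, −0.033 at C1qc, 0.039 at Kl and 0.031 at Hba-a2. With the wider promoter the log2 difference became 0.047 at Gjb6, −0.045 at Olig2 and 0.062 at Hba-a2. With library weights the log2 difference became 0.023 at Wnt3 and −0.0021 at Fgfr3. With input subtracted the log2 difference became 0.239 at Trh, 0.138 at Gjb6, −0.0014 at Fgfr3 and −0.166 at C1qc. With median centring the log2 difference became −0.054 at Wnt3a, −0.058 at Fgfr3 and −0.026 at Olig2. With quantile normalization the log2 difference became 0.106 at Wt1, 0.116 at Pax1, 0.029 at Pax9, 0.011 at Tbx20, 0.078 at Tbx15, 0.040 at Atoh1, 0.091 at Wnt3, 0.045 at Trh, 0.026 at Gjb6, −0.035 at Fgfr3, 0.024 at Kcnj8 and 0.010 at Pitx1. The differences ran, without single replicates, over Fgfr3 −0.043 to 0.082, Gjb6 −0.095 to 0.109, Hba-a2 −0.089 to 0.0076, Kcnj8 −0.139 to 0.033, Kl −0.137 to 0.059, Olig2 −0.073 to 0.128, Pax1 −0.145 to 0.011, Pitx1 −0.183 to 0.0082, Tbx15 −0.196 to 0.030, Trh −0.215 to 0.055, Wnt3 −0.140 to 0.150, Wnt3a −0.092 to 0.097 and Wt1 −0.142 to 0.021. Of the 39 named promoters that were called, none changed sign in the settings tried, and the filter removed, without which no promoter was called, was the 1 setting in which Hoxa7, Onecut1, Onecut2, Sfmbt2, Pou4f1, Txnip, Wls, Enpp2 and Vim were not called. A median of 9 to 17 reads per tile limits single tiles and weakly marked promoters.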
